A study of Mus musculus with 14 samples.

Results

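The regions described here are genomic intervals at which at least 2 of the transcription factors (TFs) GATA1, GATA2, GFI1B and RUNX1 had a chromatin immunoprecipitation sequencing (ChIP-seq) peak in hematopoietic progenitors (HPs). Peaks of the 4 progenitor lists were merged wherever they overlapped by at least 1 bp, and a merged region was kept when it held peaks of at least 2 factors. The members were thus chosen by the peak calls themselves, so the number of factors and their combinations are a description. Of 3276 merged regions, 377 met the rule (11.5% of the merged regions), and the other 2899 held a peak of 1 factor only. They are called shared and single-factor regions below. Over all 14 lists of the series there were 117293 merged regions.

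The cells came from a mouse embryonic stem cell line of strain 129 that carries a GFP reporter in the Brachyury gene and was differentiated in vitro. The HP population was sorted as CD41+ and supplied the GATA1 (AbCam ab11963), GATA2 (Santa Cruz sc267), GFI1B (sc8559) and RUNX1 (AbCam ab23980) lists, and also lists for PU.1, the product of Spi1, and C/EBPβ. Macrophages (MAC) were obtained by terminal differentiation of CD41+ cells, were sorted on CD11b, and supplied lists for PU.1, C/EBPβ and RUNX1. The remaining lists came from mesoderm (MES, Bry+/Flk1-), hemangioblast (HB, Bry+/Flk1+) and hemogenic endothelium (HE, Tie2+/cKit+/CD41-) and were made for C/EBPβ, GATA2 or ELK4. The cells carried no other allele or treatment in the labels, and they are bulk sorted populations of 1 reporter line, so a peak shared by several factors need not mean that they were bound in the same cell. There was 1 list per factor and stage, so that replicate error is unknown and no difference below was tested. Shares carry exact 95% intervals (Clopper-Pearson) for the counting error alone, with each region taken as independent.

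GATA1 and GATA2 are zinc finger activators that read the same short DNA word, and GATA2 is replaced by GATA1 at many sites during erythroid differentiation. RUNX1 binds DNA with its partner CBFβ and is needed for the first blood cells to emerge from endothelium. GFI1B is a repressor that recruits the demethylase LSD1 and its CoREST partners, and in early blood cells it silences endothelial genes. PU.1 and C/EBPβ act in the myeloid branch, where PU.1 opens macrophage elements and C/EBPβ joins it.

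All 4 progenitor lists contributed to the shared regions, in unequal parts. GATA1 had 157 of its 250 peaks in shared regions (62.8%, interval 56.5 to 68.8), and GATA2 had 199 of 530 (37.5%, 33.4 to 41.8). RUNX1 had 238 of 977 (24.4%, 21.7 to 27.2) and GFI1B had 282 of 2018 (interval 12.5% to 15.6%). The shortest list was therefore the one found most often in company, but the authors chose the calling threshold of each list by eye, so that list lengths and these shares do not measure amounts of binding. Read from the side of the regions, GFI1B was present in 74.8%, RUNX1 in 63.1%, GATA2 in 52.8% and GATA1 in 41.6%.

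The most frequent combination was GFI1B with RUNX1 and no GATA factor, with 125 regions. A GATA factor joined GFI1B without RUNX1 in 106 regions, of which 50 held GATA2, 30 GATA1 and 26 both. A GATA factor joined RUNX1 without GFI1B in 62 regions, of which 31 held GATA2, 17 GATA1 and 14 both. GATA1 and GATA2 were together without the other factors in 33 regions. A GATA factor, GFI1B and RUNX1 met in 51 regions, and 31 of these held all 4 factors. By number of factors, 286 regions held 2, 60 held 3 and 31 held 4.

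**Figure D1:**
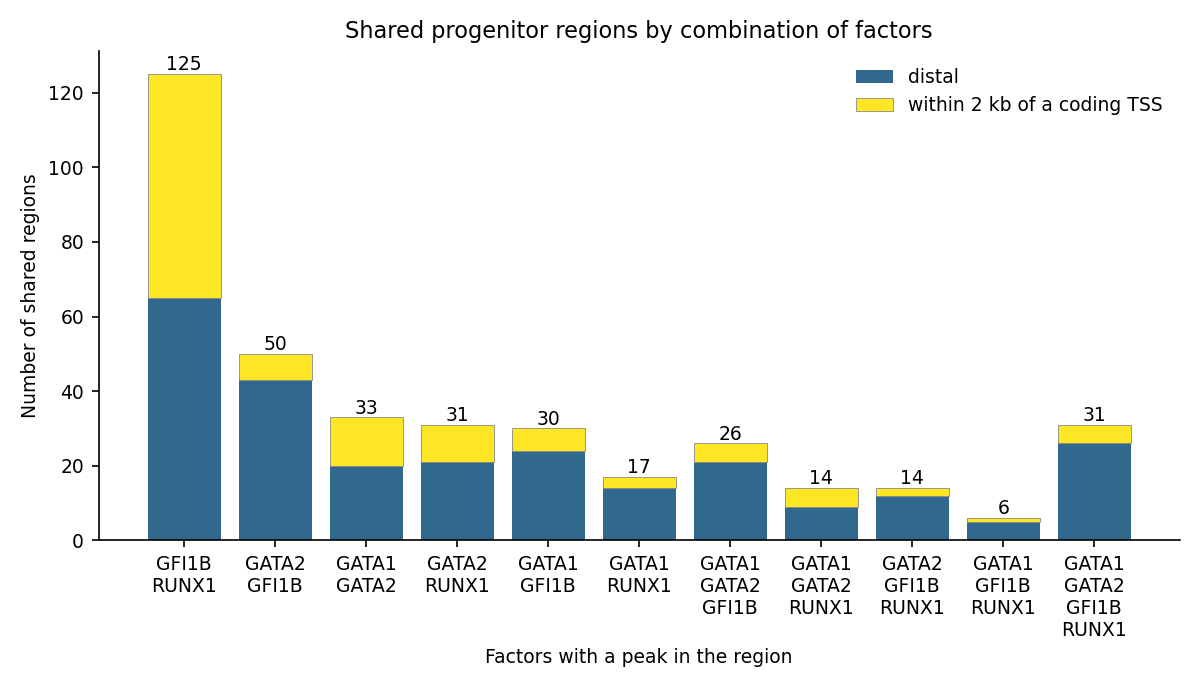
Number of shared regions (y axis) for each of the 11 combinations of factors (x axis). Blue marks regions over 2 kb from a coding transcription start site and yellow marks regions within 2 kb of one. GFI1B with RUNX1 is the tallest bar, with 125 regions of which 60 are within 2 kb, and 26 of the 31 regions with all 4 factors are distal.

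Because the rule joins overlapping peaks of 400 bp, the centres of peaks that overlap are less than 400 bp apart by construction, and the distances between them are a description. Among regions with both GATA1 and GATA2, the peak centres were a median of 19.5 bp apart and 86 of 104 (82.7%) lay within 50 bp. The median distance was 42.5 bp for GATA1 and RUNX1 (n = 68) and 46.0 bp for GATA2 and RUNX1 (n = 90). It was longer for each pair with GFI1B, at 54.0 bp from GATA1 (n = 93), 62.0 bp from GATA2 (n = 121) and 71.0 bp from RUNX1 (n = 176). Shared regions were 400 to 898 bp wide with a median of 461 bp. Of the regions with 3 and 4 factors, 59 of 60 and 30 of 31 had a base under a peak of every factor, and the other 2 were joined through a peak between. At the edge of the rule, the smallest overlap within a region of 2 factors was 14 bp, the nearest peaks left out were 11 bp apart, and 258 of the 286 regions of 2 factors overlapped by 200 bp or more.

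The sequences below show the centres of regions with all 4 factors, so that the letters beneath the peaks can be read directly. They are 200 bp from the RefSeq sequence of GRCm38 (mm10), centred on the mean of the peak centres, and none overlaps an annotated exon. They are the leading 8 of the 31 by the number of shared regions of the nearest gene and then position, leaving out regions with peaks in more than 10 of the 14 lists. Capitals mark AGATAA or TGATAA (the GATA core, which reads TTATCT or TTATCA on the other strand), TGTGGTT (the RUNX consensus, AACCACA on the other strand) and AATCACNGC (the GFI1B consensus).
Gse1-1 (chr8:120370038-120370237, + strand): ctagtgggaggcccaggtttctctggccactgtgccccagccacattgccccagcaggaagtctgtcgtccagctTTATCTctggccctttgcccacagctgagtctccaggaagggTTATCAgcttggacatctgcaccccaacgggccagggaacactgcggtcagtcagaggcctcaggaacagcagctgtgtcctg
Gse1-2 (chr8:120371812-120372011, + strand): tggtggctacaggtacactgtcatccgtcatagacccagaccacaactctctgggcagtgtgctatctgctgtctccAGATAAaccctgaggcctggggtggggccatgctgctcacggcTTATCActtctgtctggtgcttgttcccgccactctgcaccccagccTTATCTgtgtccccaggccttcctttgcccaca
Gse1-3 (chr8:120487067-120487266, + strand): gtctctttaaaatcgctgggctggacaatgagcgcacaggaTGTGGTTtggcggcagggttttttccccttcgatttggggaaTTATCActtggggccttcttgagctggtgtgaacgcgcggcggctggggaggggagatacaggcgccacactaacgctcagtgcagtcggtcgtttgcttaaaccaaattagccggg
Cbfa2t3-1 (chr8:122719845-122720044, + strand): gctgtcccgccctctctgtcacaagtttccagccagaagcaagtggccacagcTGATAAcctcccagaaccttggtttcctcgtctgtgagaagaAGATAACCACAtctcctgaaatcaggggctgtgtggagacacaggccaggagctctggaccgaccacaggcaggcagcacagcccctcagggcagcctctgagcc
Gtf3c5-1 (chr2:28598097-28598296, + strand): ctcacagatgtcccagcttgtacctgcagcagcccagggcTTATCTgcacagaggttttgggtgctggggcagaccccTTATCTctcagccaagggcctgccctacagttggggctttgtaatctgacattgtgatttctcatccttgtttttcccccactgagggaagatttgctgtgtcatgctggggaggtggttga
Prrc2b-1 (chr2:32128101-32128300, + strand): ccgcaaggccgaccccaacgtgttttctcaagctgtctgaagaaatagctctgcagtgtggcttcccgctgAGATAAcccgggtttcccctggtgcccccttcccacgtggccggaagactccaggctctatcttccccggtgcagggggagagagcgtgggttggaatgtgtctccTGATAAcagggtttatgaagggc
Rbpms-1 (chr8:33931157-33931356, + strand): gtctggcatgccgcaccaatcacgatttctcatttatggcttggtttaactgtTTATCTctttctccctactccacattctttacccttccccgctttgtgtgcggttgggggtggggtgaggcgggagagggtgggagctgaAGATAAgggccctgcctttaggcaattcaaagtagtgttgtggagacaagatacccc
Runx1-1 (chr16:92822135-92822334, + strand): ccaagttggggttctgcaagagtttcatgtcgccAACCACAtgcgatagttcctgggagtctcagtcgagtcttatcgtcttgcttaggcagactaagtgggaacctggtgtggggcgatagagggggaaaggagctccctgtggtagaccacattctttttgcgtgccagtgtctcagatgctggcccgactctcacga

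In these 8 sequences the GATA core occurred 14 times, and 7 of the 8 held at least 1 copy. Of these, Gse1-2, far upstream of Gse1, held 3 copies. A RUNX consensus was present in 3 of the 8, and none held the GFI1B consensus. The first 7 sequences lay wholly under the peaks of all 4 factors. Runx1-1 lay under the GATA2 and RUNX1 peaks, had 109 bp under the GATA1 peak and none under the GFI1B peak. In Cbfa2t3-1, upstream of Cbfa2t3, a GATA core and a RUNX consensus ran into each other and shared bases. That arrangement was rare: 2 of the 377 shared regions and 9 of the 2899 single-factor regions had it within the central 400 bp. By contrast, Runx1-1, inside Runx1, held a RUNX consensus and no GATA core.

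Across all shared regions, consensus sequences were searched on both strands of the central 400 bp and in windows of equal width 2 kb to either side. A match is a string of letters and not a bound site. The GATA consensus (AGATAAG or AGATAAC) was found in 130 of 377 shared regions (34.5%, 29.7 to 39.5), in 20.6% of single-factor regions and in 22.2% of all merged regions. In the flanks of shared regions it was found in 10.3% of windows. With the shorter GATA core the shares were 59.9%, 39.1% and 41.5%, and 32.8% in the flanks, so that the shorter word has a high background. At least 2 GATA cores were present in 28.9% (24.4 to 33.8) of shared and 12.4% (11.2 to 13.7) of single-factor regions.

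The pooled shares mix factors, and the letters followed the factors present. The GATA consensus was in 62.7% (48.1 to 75.9) of the 51 regions with a GATA factor, GFI1B and RUNX1, in 46.2% (36.5 to 56.2) of GATA and GFI1B regions, and in 45.5% (28.1 to 63.6) of GATA1 and GATA2 regions. It was in 35.5% (23.7 to 48.7) of GATA and RUNX1 regions and in 9.60% (5.06 to 16.2) of GFI1B and RUNX1 regions, close to the 12.8% of their flanks. Regions with a GATA peak alone stood at 46.7% (41.9 to 51.6), so that shared regions with a GATA factor (46.8%, 40.5 to 53.2) differed little from them. At least 2 GATA cores were held by 27 of the 51 regions with all 3 kinds of factor (52.9%, 38.5 to 67.1), by 47.2% of GATA and GFI1B, 45.5% of GATA1 and GATA2 and 21.0% of GATA and RUNX1 regions. Among regions with a GATA peak alone, they were held by 45.2% (34.8 to 55.8) of those with GATA1 and 21.1% (16.9 to 25.9) of those with GATA2, so that the GATA1 regions overlapped the highest shared class.

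The RUNX consensus was found in 96 shared regions (25.5%, 21.1 to 30.2), in 16.0% of single-factor regions, in 17.1% of all merged regions and in 9.68% of the flanks. GFI1B and RUNX1 regions held it in 37.6% (29.1 to 46.7), and regions of all 3 kinds of factor in 35.3% (22.4 to 49.9). GATA and GFI1B regions, which lack a RUNX1 peak, held it in 8.49% (3.96 to 15.5), no more than their flanks at 8.96%. Regions with a RUNX1 peak alone held it in 23.4% (20.4 to 26.6). Most of those lay at promoters, and once only distal regions were compared, the single RUNX1 regions reached 47.2% (40.6 to 53.8) beside 55.4% (42.5 to 67.7) for distal GFI1B and RUNX1 regions.

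GFI1B gave the opposite picture. In a comparison restricted to regions with a GFI1B peak after seeing the data, its consensus was found in 7 of the 282 shared regions (2.48%, 1.00 to 5.05). It was found in 197 of the 1736 regions with a GFI1B peak alone (11.3%, 9.89 to 12.9). The share was 10.1% of all 2018 regions with a GFI1B peak and 6.68% of all merged regions, with or without GFI1B. The flanks of the shared regions with GFI1B held it in 0.887%. None of the 51 regions with a GATA factor, GFI1B and RUNX1 held it (exact upper limit 6.98%). With a looser word chosen after seeing these values, AATCNNNGC, the shares were 24.8% (19.9 to 30.3) and 47.9% (45.6 to 50.3), with 18.3% and 18.6% in the flanks. Among distal regions alone the AATCACNGC shares were 2.55% (0.833 to 5.85) and 8.77% (7.07 to 10.7).

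Words of the other factors were also measured from the GFI1B peak centre. In all 282 shared regions with GFI1B, a GATA core lay within 50 bp of it in 90 (31.9%) and a RUNX consensus in 34 (12.1%). By class, a GATA core lay within 50 bp of the GFI1B peak centre in 48 of 106 GATA and GFI1B regions (45.3%) and in 12.8% of GFI1B and RUNX1 regions, against 330 of 1736 regions with a GFI1B peak alone (19.0%). A RUNX consensus lay within 50 bp of it in 22 of 125 GFI1B and RUNX1 regions (17.6%) and in 3.77% of GATA and GFI1B regions, against 6.39% of the regions with a GFI1B peak alone. The looser GFI1B word was there in 17.6% of GFI1B and RUNX1 regions, 20.8% of GATA and GFI1B regions and 35.8% of the regions with a GFI1B peak alone. For comparison, a GATA core lay within 50 bp of the GATA1 centre in 63.1% of shared regions with GATA1, and of the GATA2 centre in 60.3% of those with GATA2. In regions with a GATA1 or a GATA2 peak alone these shares were 76.3% and 53.2%.

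The spaced pair that TAL1 and GATA factors bind together, CTG and, after 8 further bases, AGATAA, was found in 38 shared regions (10.1%, 7.23 to 13.6). It was in 4.10% of single-factor and 4.79% of all merged regions, and in 0.133% of the flanks of shared regions. It was in 18.9% (11.9 to 27.6) of GATA and GFI1B regions and in 1.60% (0.194 to 5.66) of GFI1B and RUNX1 regions. Regions with a GATA1 peak alone held it as often as the former (20.4%, 12.8 to 30.1), and regions with a GATA2 peak alone held it in 4.83% (2.79 to 7.73). TAL1 itself was not among the lists used here. A PU.1 word (GAGGAAGT) was in 5.57% of shared regions (5.68% of all merged regions), an ELK4 word (CCGGAAGT) in 2.92% (4.37%), and the C/EBP palindromes TTGCACAA, TTGCATAA, TTGCGCAA and TTGCGTAA in 1.59% (2.38%). None of these 3 stood above the share over all merged regions. In the flanks of the shared regions the PU.1 word was in 2.39% (1.42 to 3.75), the ELK4 word in 0.663% (0.216 to 1.54) and the C/EBP words in 1.59% (0.825 to 2.76).

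**Figure D2:**
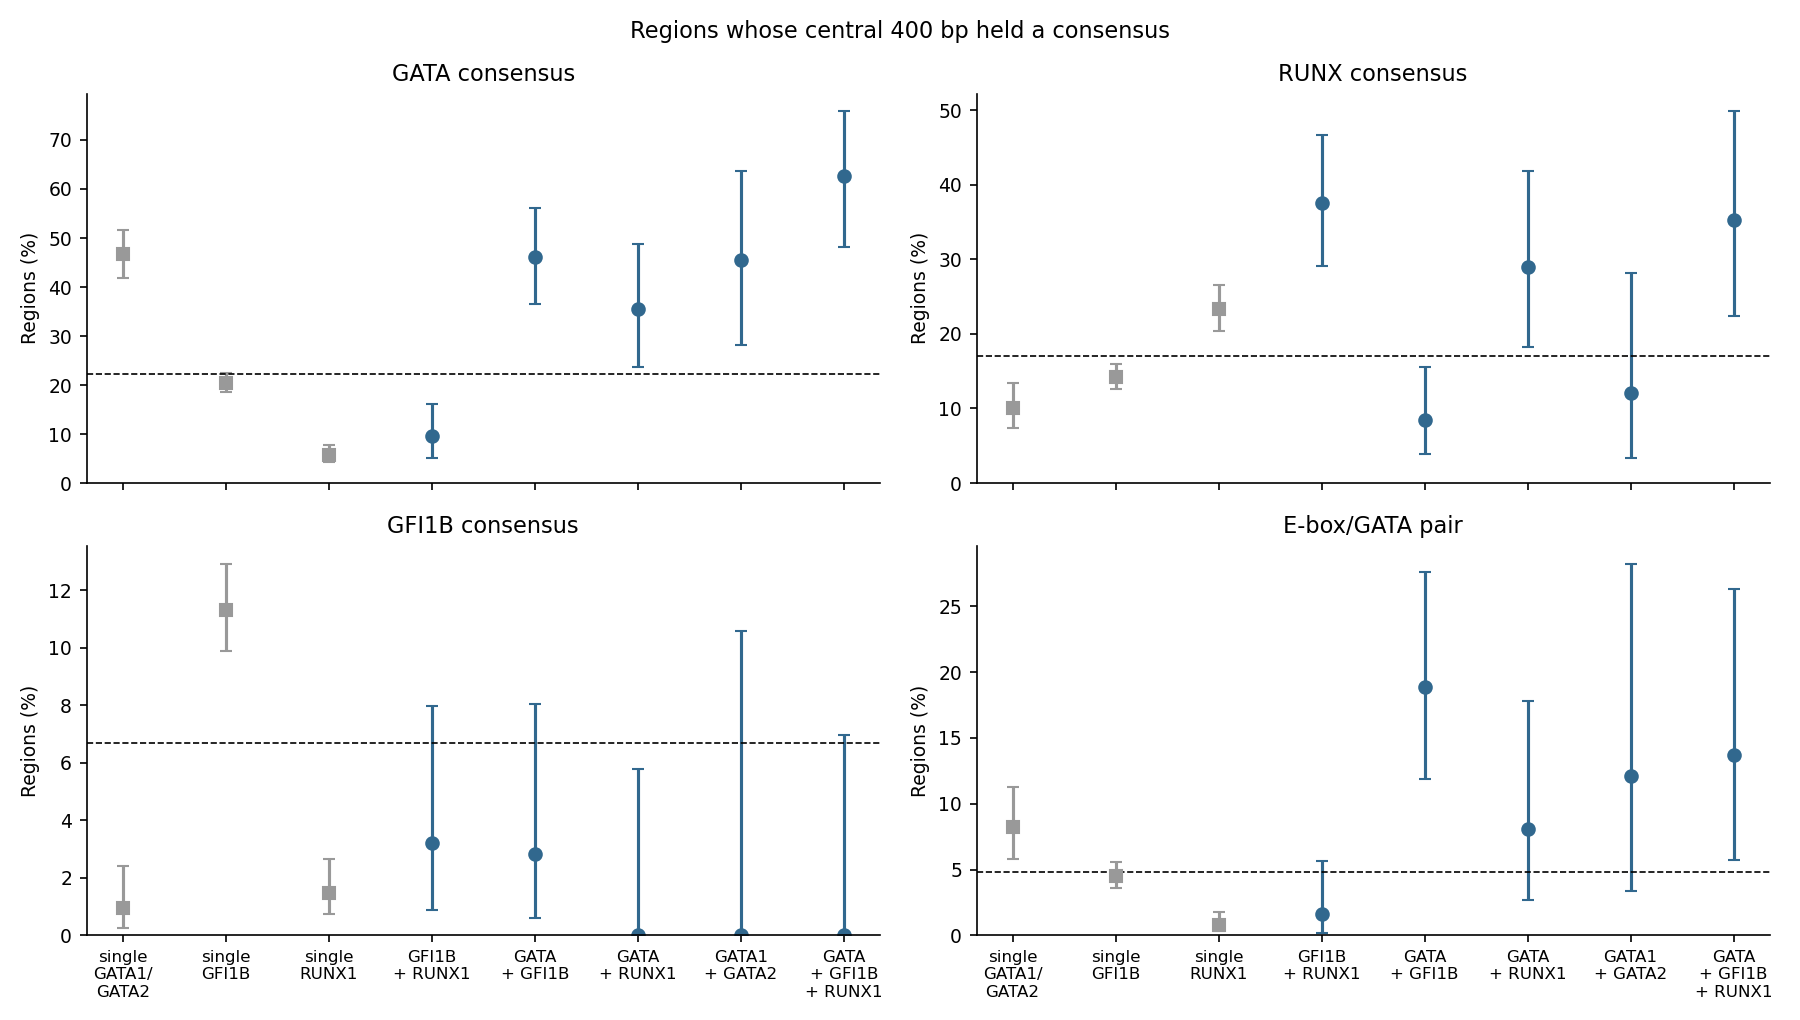
Share of regions (y axis, percent) whose central 400 bp held the GATA, RUNX or GFI1B consensus or the E-box/GATA pair, for 3 groups of single-factor regions (grey squares) and 5 classes of shared regions (blue circles) on the x axis. Bars are exact 95% intervals and the dashed line is the share over all merged regions. The GFI1B consensus is at 11.3% in single GFI1B regions and at 0.00% to 3.20% in the shared classes.

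Shared regions lay mostly away from promoters. Within 2 kb of a coding transcription start site (TSS) there were 117 of the 377 (31.0%, 26.4 to 36.0), against 48.1% (46.3 to 50.0) of single-factor and 46.2% of all merged regions. The median distance to the nearest coding TSS was 13016 bp for shared and 2454 bp for single-factor regions. The share near a TSS was 34.6% with 2 factors, 21.7% with 3 and 16.1% (5.45 to 33.7) with 4. It also followed the combination: 48.0% (39.0 to 57.1) for GFI1B and RUNX1, 39.4% (22.9 to 57.9) for GATA1 and GATA2, 29.0% (18.2 to 41.9) for GATA and RUNX1, 17.0% (10.4 to 25.5) for GATA and GFI1B, and 15.7% (7.02 to 28.6) for all 3 kinds together. The group with 2 factors held all 125 GFI1B and RUNX1 regions, so number of factors and combination were not separated.

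The single-factor regions differed in the same measure. Single RUNX1 regions were within 2 kb of a TSS in 69.0% (65.5 to 72.3) and single GFI1B regions in 44.2% (41.8 to 46.6). The share for a GATA factor alone was 27.8% (23.6 to 32.4), and for shared regions with a GATA factor it was 22.6% (17.6 to 28.3), with overlapping intervals. Base composition moved with position: the median GC content of the central 400 bp was 60.8% in promoter-proximal and 52.0% in distal shared regions.

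The centre of a shared region lay in an intron of a coding gene in 153 cases, 65 of them in intron 1. It was intergenic in 149, within a noncoding gene in 39, in a 5′ UTR exon in 25, in a coding exon in 10 and in a 3′ UTR exon in 1. Of the 31 regions with all 4 factors, 17 were intergenic, 11 intronic and 3 in a noncoding gene, and none was exonic.

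**Figure D3:**
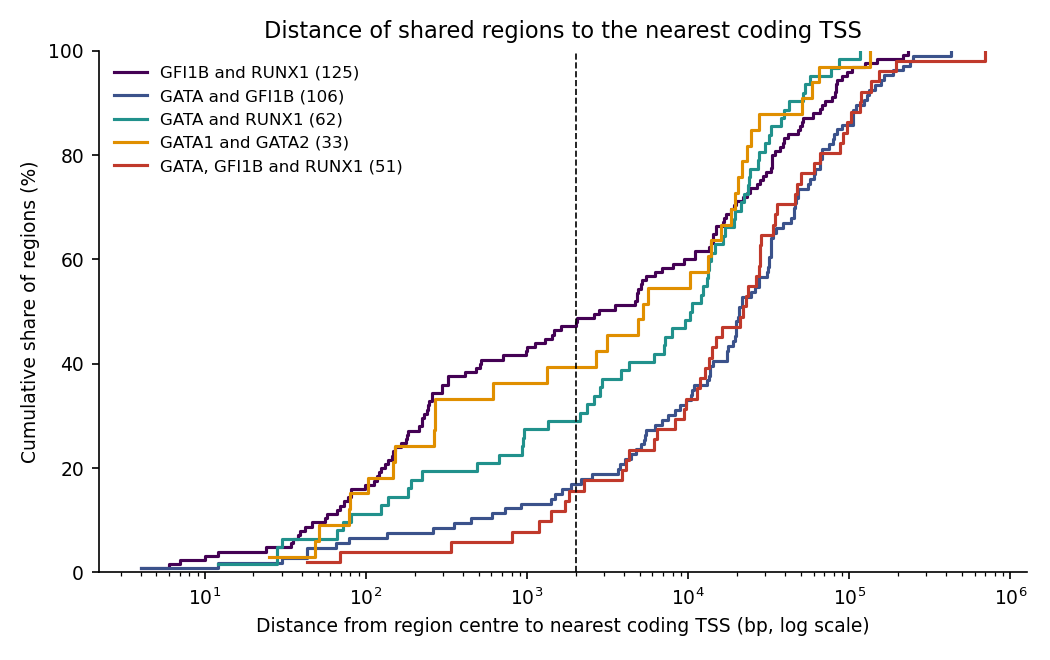
Cumulative share of shared regions (y axis, percent) by distance from the region centre to the nearest coding TSS (x axis, bp, log scale), with 1 line per class and the number of regions in brackets. The dashed line is at 2 kb, where the GFI1B and RUNX1 line stands at 48.0% and the line for GATA, GFI1B and RUNX1 at 15.7%.

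Distances below run to the closest annotated coding TSS of the gene named, so that regions of 1 gene can refer to different TSSs. The 377 regions were nearest to 350 coding genes, which is 1.67% of the 21000 coding genes annotated. Of these genes, 331 had 1 shared region, 14 had 2, 2 had 3 and 3 had 4. The 10 lists of genes were set up from textbook knowledge with earlier results of these data in view. Among them, the list of blood TFs and cofactors had the largest share, with 8 of 30 genes (26.7%) nearest to a shared region. These were Gfi1, Runx1, Cbfa2t3, Tal1, Lyl1, Hhex, Zfpm1 and Nfe2, with 16 shared regions between them, and 16 of the 30 (53.3%) were nearest to a single-factor region, as were 2507 of all coding genes (11.9%). The partners of GFI1B in the LSD1 complex gave 2 of 9 genes (Phf21a and Gse1), megakaryocyte and platelet genes 4 of 24 (Itgb3, Gp1ba, Thbs1 and Nfe2), and endothelial genes 3 of 19 (Sox7, Flt1 and Ets2). Cytokine signalling gave 2 of 20 (Socs1 and Pim1) and erythroid genes 1 of 23 (Gypc). No gene was nearest to a shared region among 10 annotated mast cell genes, 21 macrophage and granulocyte genes, 14 cardiac and smooth muscle genes and 22 cytosolic ribosomal protein genes. Beside that share of 11.9% over all coding genes, single-factor regions were nearest to 6 endothelial (31.6%), 7 erythroid (30.4%), 5 megakaryocyte, 4 cytokine signalling, 4 ribosomal, 3 macrophage and granulocyte, 2 cardiac and smooth muscle, 2 corepressor and 0 mast cell genes. The lists are short, and these counts are given without a test.

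Genes with 4 shared regions were Zfpm1, Cbfa2t3 and Gse1, and each encodes a protein that works with the factors studied. Zfpm1 encodes FOG1, the cofactor of GATA1. Its regions all lay inside the gene, 2690 bp (GATA1 and GATA2, intron 1), 27368 bp (GATA1 and GATA2, intron 3), 31399 bp (GATA1, GATA2 and GFI1B, intron 3) and 32932 bp (GFI1B and RUNX1, intron 3) downstream of its TSS. The 3 with a GATA factor overlapped no PU.1 or C/EBPβ peak, and the GFI1B and RUNX1 region overlapped PU.1 peaks of HP and MAC. The 3 GATA regions each held 3 GATA cores in their central 400 bp and the other held none.

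Cbfa2t3 encodes ETO2, a corepressor of the TAL1 and GATA complexes. Its 4 regions lay upstream. All 4 factors met at chr8:122719704-122720206, 20846 bp upstream of the TSS, and GATA1, GATA2 and GFI1B met 21435 bp upstream. GATA2, GFI1B and RUNX1 met 1828 bp upstream, where PU.1 was also called in HP and MAC, and GATA2 and GFI1B met 261 bp upstream. The other 3 regions of the gene overlapped no list beyond the 4 progenitor factors. The regions 20846 and 21435 bp upstream each held an E-box/GATA pair.

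Gse1 encodes a coiled-coil protein found with LSD1 and CoREST. All 4 factors met at 3 of its regions, chr8:120369889-120370370 and chr8:120371670-120372133, which are 118736 and 116964 bp upstream of the TSS, and chr8:120486937-120487382, 1706 bp upstream. The regions 118736 and 1706 bp upstream overlapped a PU.1 peak of MAC, and the other overlapped no further list. GATA1 and GFI1B met 13169 bp upstream, where PU.1 was also called in HP and MAC. Phf21a, which encodes another member of the LSD1 complex, had a region of GATA1, GFI1B and RUNX1 9752 bp upstream of its TSS, without PU.1 or C/EBPβ.

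Of the genes of the 4 factors, Runx1 alone was nearest to a shared region, and neither Gata1 nor Gata2 had a shared region within 150 kb of a TSS. At Runx1, peaks of all 4 factors were chained at chr16:92821728-92822625, 3897 bp downstream of the TSS in an intron, with PU.1 of HP and MAC. The GATA1 and GFI1B peaks there did not overlap and were joined through those of GATA2 and RUNX1. GATA2 and RUNX1 met 24343 bp downstream, with PU.1 and C/EBPβ in both stages. At Gfi1, the close relative of Gfi1b, all 4 factors met at chr5:107759068-107759614, 33536 bp upstream in an intron of Evi5. This region was in 11 of the 14 lists, including HB GATA2 and MAC RUNX1. No shared region had the Gfi1b TSS as its nearest, but 3 regions nearest to Gtf3c5, a subunit gene of TFIIIC, lay 19601, 22554 and 23794 bp downstream of the Gfi1b TSS. They held GATA1 and GFI1B, then GATA2, GFI1B and RUNX1, then all 4 factors (chr2:28597928-28598447). The last overlapped PU.1 and C/EBPβ peaks of MAC and none of HP.

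Tal1, the helix-loop-helix partner of the GATA factors, had a GATA1 and GATA2 region 263 bp downstream of its TSS (chr4:115056474-115056903), which was in 9 of the 14 lists. GATA1 and GATA2 met again, here with RUNX1, at chr4:115095660-115096062, which is nearest to Pdzk1ip1 and 38050 bp downstream of the closest of the Tal1 TSSs, with a GATA2 peak already in HB. Lyl1, the relative of Tal1, had GATA1, GATA2 and RUNX1 137 bp downstream of its TSS in the 5′ UTR exon, with PU.1 of both stages. It had GATA1 and RUNX1 2125 bp downstream, with 3 RUNX consensus matches and RUNX1 and C/EBPβ peaks in MAC. Nfe2, an activator of platelet and globin genes, had GATA1, GATA2 and RUNX1 123 bp upstream, with PU.1 and C/EBPβ in both stages. Hhex, a homeobox repressor, had GATA1, GATA2 and GFI1B 921 bp downstream in intron 1. Myb, which maintains progenitors, was flanked at a distance: all 4 factors met in intron 19 of Ahi1, 106079 bp downstream of the Myb TSS, and GATA2 and GFI1B met near Hbs1l, 67698 bp upstream of it.

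**Figure D4:**
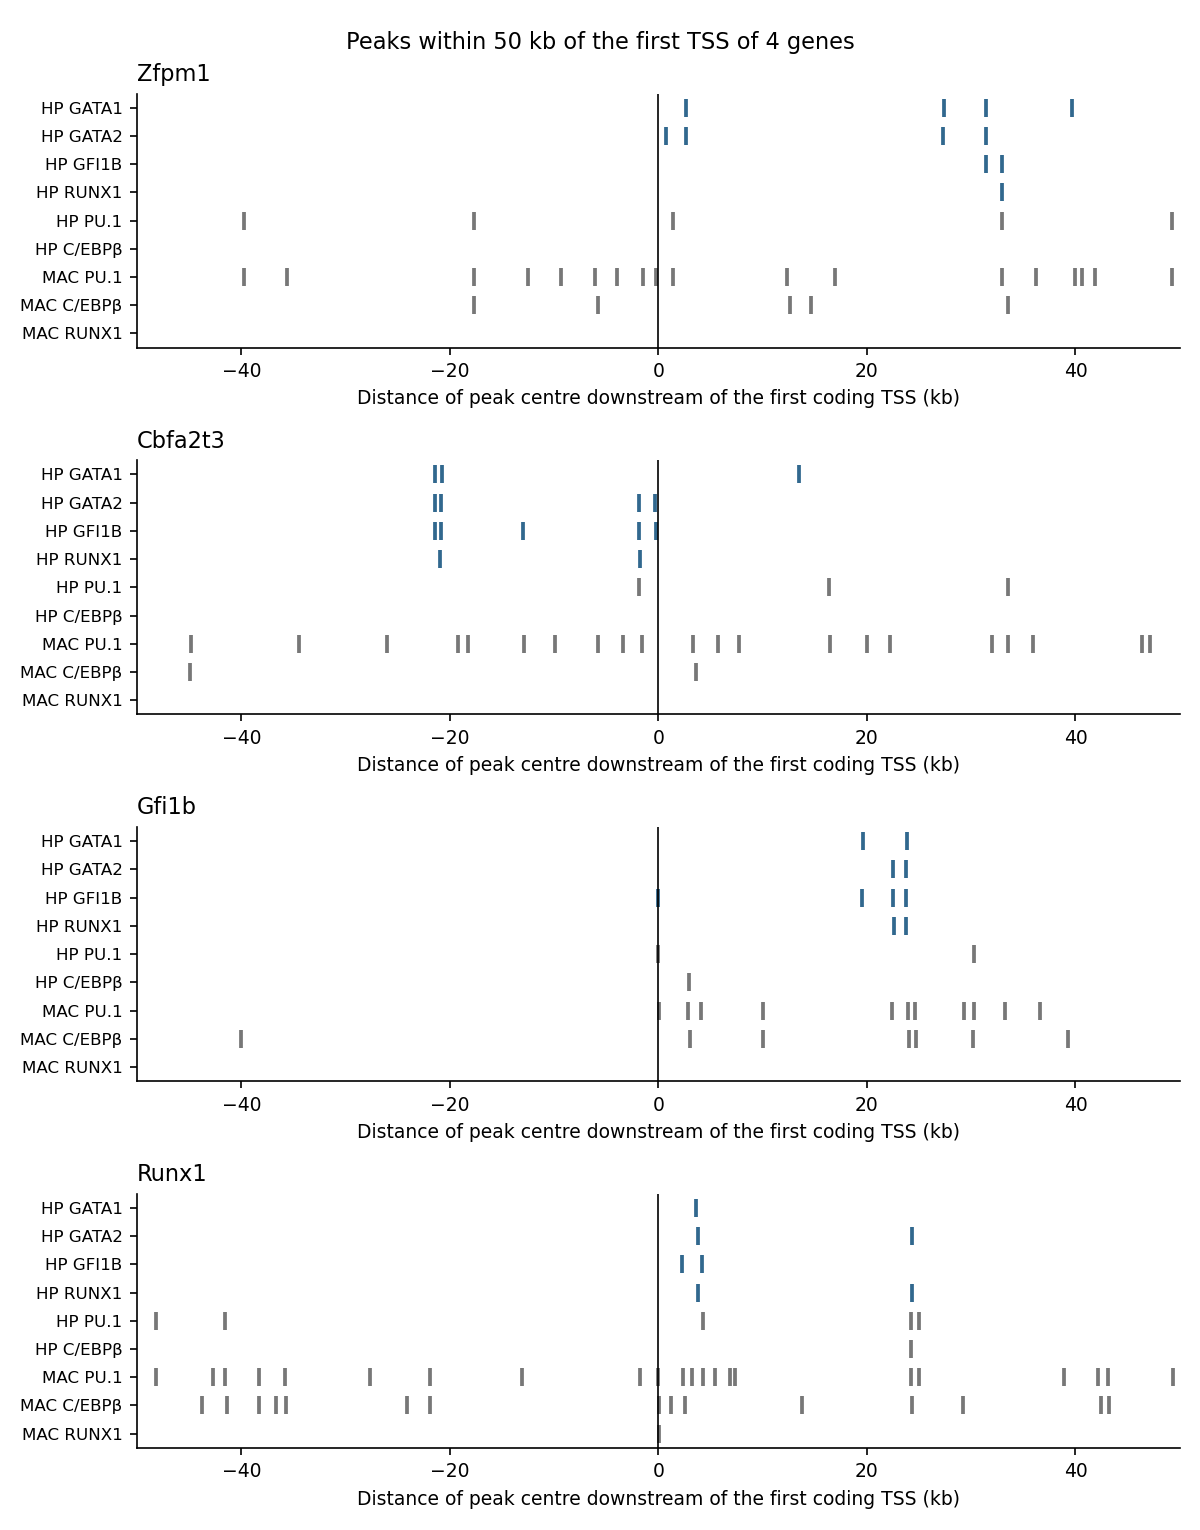
Peak centres within 50 kb of the first coding TSS of Zfpm1, Cbfa2t3, Gfi1b and Runx1, with distance downstream of the TSS on the x axis (kb) and 1 row per list. Blue marks the 4 progenitor lists and grey marks PU.1, C/EBPβ and MAC RUNX1. At Gfi1b the blue marks lie between 19575 and 23854 bp downstream, except for a GFI1B mark at the TSS.

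Genes of the lineage lists came next. Gp1ba, a subunit of the platelet receptor for von Willebrand factor, had GATA1 and GATA2 78 bp upstream of its TSS, and Itgb3, the partner chain of CD41, had GFI1B and RUNX1 10998 bp downstream in intron 1. Thbs1 had GATA2 and GFI1B 45489 bp upstream. Gypc, an erythrocyte membrane glycoprotein gene, had 2 regions in intron 1, 17497 bp (GATA1, GATA2 and GFI1B) and 21519 bp (GATA1 and GATA2) downstream. None of these 5 regions overlapped a PU.1 or C/EBPβ peak, which also held for 134 of the 377 shared regions (35.5%). Over all merged regions, 55.3% overlapped such a peak. The region of Nfe2, on the same platelet list, overlapped both in both stages. Among endothelial genes, Flt1, which encodes a VEGF receptor, had GATA2 with GFI1B at 4422 and 67954 bp downstream. Sox7 had GATA2 with GFI1B 34977 bp upstream and GFI1B with RUNX1 14288 bp downstream, and Ets2 had GFI1B with RUNX1 125063 bp downstream. The signalling regulators Socs1 (GATA2 and GFI1B, 47697 bp downstream) and Pim1 (GATA1 and GFI1B, 43318 bp upstream) had distant regions. Of the genes of the sorting markers, Itga2b (CD41) was nearest to 1 GATA2 peak and to none of the other 3 lists, and Kit was nearest to none of the 4 lists.

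Itsn1, an endocytic scaffold gene, had 3 shared regions, 65 bp (GATA1, GATA2 and GFI1B), 60531 bp (GATA2, GFI1B and RUNX1) and 96635 bp (GFI1B and RUNX1) downstream of its TSSs, and PU.1 of both stages was at the last 2. The other regions with all 4 factors lay near genes of varied function. Near a TSS were Rbpms (chr8:33931019-33931510, 1402 bp upstream), Flt3l, the cytokine FLT3 ligand (chr7:45137363-45137883, 1191 bp upstream), Sde2 (chr1:180850433-180851192, 338 bp upstream) and Mylk3 (chr8:85380830-85381389, 69 bp upstream). In introns of the nearest gene were Vav1, a blood-cell exchange factor (chr17:57290243-57290688), Dapp1, a B cell adaptor (chr3:137957853-137958351), Zc3hav1, an antiviral RNA-binding protein (chr6:38341668-38342154), St3gal2 (chr8:110928991-110929549), Micall2 (chr5:139733696-139734435), Pigl (chr11:62466456-62466985) and Mdga1 (chr17:29859777-29860329). Cebpe, the C/EBP factor of granulocytes, had a region 6116 bp downstream of its TSS (chr14:54705810-54706305) that overlapped C/EBPβ peaks of HP and MAC. Dyrk3, a kinase gene, had a region 11806 bp downstream (chr1:131126182-131126673) in no other list.

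Further members of this group were distal to Prrc2b (chr2:32127923-32128474), Ap1m1 (chr8:72268227-72268770), Polr2e (chr10:80033015-80033448), Cand1 (chr10:119086485-119086908) and Zdhhc19 (chr16:32509547-32510009). Another lay in intron 9 of Ctif, 135671 bp downstream of the TSS of Smad7, an inhibitor of TGFβ signalling. Of the 31 regions, 12 (38.7%, 21.8 to 57.8) overlapped no list beyond the 4 progenitor factors, near the 34.0% of shared and 44.0% of all merged regions.

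Shared regions more often also held a PU.1 or C/EBPβ peak of the same progenitors than single-factor regions did. PU.1 of HP was present in 92 of the 377 (24.4%, 20.2 to 29.1), against 11.7% (10.5 to 12.9) of single-factor and 13.2% of all merged regions. C/EBPβ of HP was present in 45 (11.9%, 8.84 to 15.6), against 4.93% (4.17 to 5.78) and 5.74%. Both were present in 18 regions (4.77%, 2.85 to 7.44), against 1.00% (0.671 to 1.43) of single-factor regions. With a fixed window of 400 bp, which removes the greater width of shared regions, the PU.1 share was 23.9% and the C/EBPβ share was 11.9%. In the longer macrophage lists, PU.1 was present in 219 (58.1%, 52.9 to 63.1), against 44.0% of single-factor and 45.7% of all merged regions. C/EBPβ of MAC was present in 131 (34.7%, 29.9 to 39.8), against 28.9% (27.3 to 30.6) and 29.6%. Regions with a RUNX1 peak alone were above the shared regions in both, at 470 of 739 (63.6%) for PU.1 and 294 of 739 (39.8%) for C/EBPβ.

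Within the shared regions, the HP PU.1 share was highest in the classes with RUNX1. It was 31.4% (19.1 to 45.9) in regions of all 3 kinds of factor, 29.0% (18.2 to 41.9) with GATA and RUNX1, and 27.2% (19.6 to 35.9) with GFI1B and RUNX1. It was 21.2% (8.98 to 38.9) for GATA1 and GATA2 and 16.0% (9.63 to 24.4) for GATA and GFI1B, and the intervals of the classes overlapped. The contrast with single-factor regions varied with the factor. Among distal regions, PU.1 of HP was present in 26.2% (20.9 to 31.9) of shared, 28.4% (22.6 to 34.7) of single RUNX1, 16.0% (12.1 to 20.6) of single GATA and 13.6% (11.9 to 15.5) of all single-factor regions. A distal region with a RUNX1 peak alone thus held PU.1 about as often as a distal shared region of any combination. Distal shared regions with GFI1B held PU.1 in 26.5% (20.5 to 33.3) and distal regions with a GFI1B peak alone in 9.39% (7.63 to 11.4). The 2 comparisons are unlike, because the first also counts shared regions without RUNX1. Shared regions with GFI1B include those that also hold RUNX1, whose classes had the higher shares above. At any distance from a TSS, PU.1 of HP was in 68 of 238 shared regions with RUNX1 and in 128 of 739 with RUNX1 alone.

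For C/EBPβ of HP the order was another. GATA and RUNX1 regions held it in 19.4%, regions of all 3 kinds in 15.7%, GATA and GFI1B regions in 13.2%, GFI1B and RUNX1 regions in 7.20% and GATA1 and GATA2 regions in 6.06%. With all 4 factors it was 8 of 31 (25.8%, 11.9 to 44.6), and 4 of those 8, nearest to Rpp21, Esp38, Axin2 and Gfi1, were regions found in 10 or more of the 14 lists. The same 8 were all the regions of the 3 kinds with C/EBPβ of HP, so that the 15.7% and its place in the order also rest on those 4. Among distal regions, C/EBPβ of HP was present in 13.1% (9.23 to 17.8) of shared, 6.99% (4.05 to 11.1) of single RUNX1 and 6.54% (4.04 to 9.91) of single GATA regions.

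Shared regions with PU.1 in progenitors mostly had it in macrophages too, as did all merged regions. Of the 92 regions with PU.1 in HP, 88 also had a PU.1 peak in MAC and 4 did not, and 131 further regions had PU.1 in MAC only (34.7%). Over all merged regions, 409 had PU.1 in HP and MAC, 22 in HP only and 1087 in MAC only (33.2%). Of the 45 regions with C/EBPβ in HP, 43 also had it in MAC and 2 did not, and 88 had it in MAC only (23.3%). Over all merged regions, 165 had C/EBPβ in HP and MAC, 23 in HP only and 804 in MAC only (24.5%). The MAC lists are far longer (82866 PU.1 and 55471 C/EBPβ peaks, against 10943 and 2716 in HP) and were called at other thresholds than the HP lists, stricter for PU.1 and looser for C/EBPβ by the quality control table of the study. The part of these differences in the peaks found in MAC only was not tested. Among the 5 classes, GFI1B and RUNX1 regions had the highest shares in MAC, 69.6% (60.7 to 77.5) for PU.1 and 45.6% for C/EBPβ, and GATA and GFI1B regions the lowest, 47.2% (37.4 to 57.1) and 24.5%. Of all 3276 merged regions 55.3% held a PU.1 or C/EBPβ peak in HP or MAC. Among the shared regions 134 (35.5%, 30.7 to 40.6) held none, and of the 5 classes GATA and GFI1B regions were free of them most often (49.1%, 39.2 to 59.0). With 1 factor alone, 931 of 1736 GFI1B, 58 of 93 GATA1, 152 of 331 GATA2 and 190 of 739 RUNX1 regions held none.

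**Figure D5:**
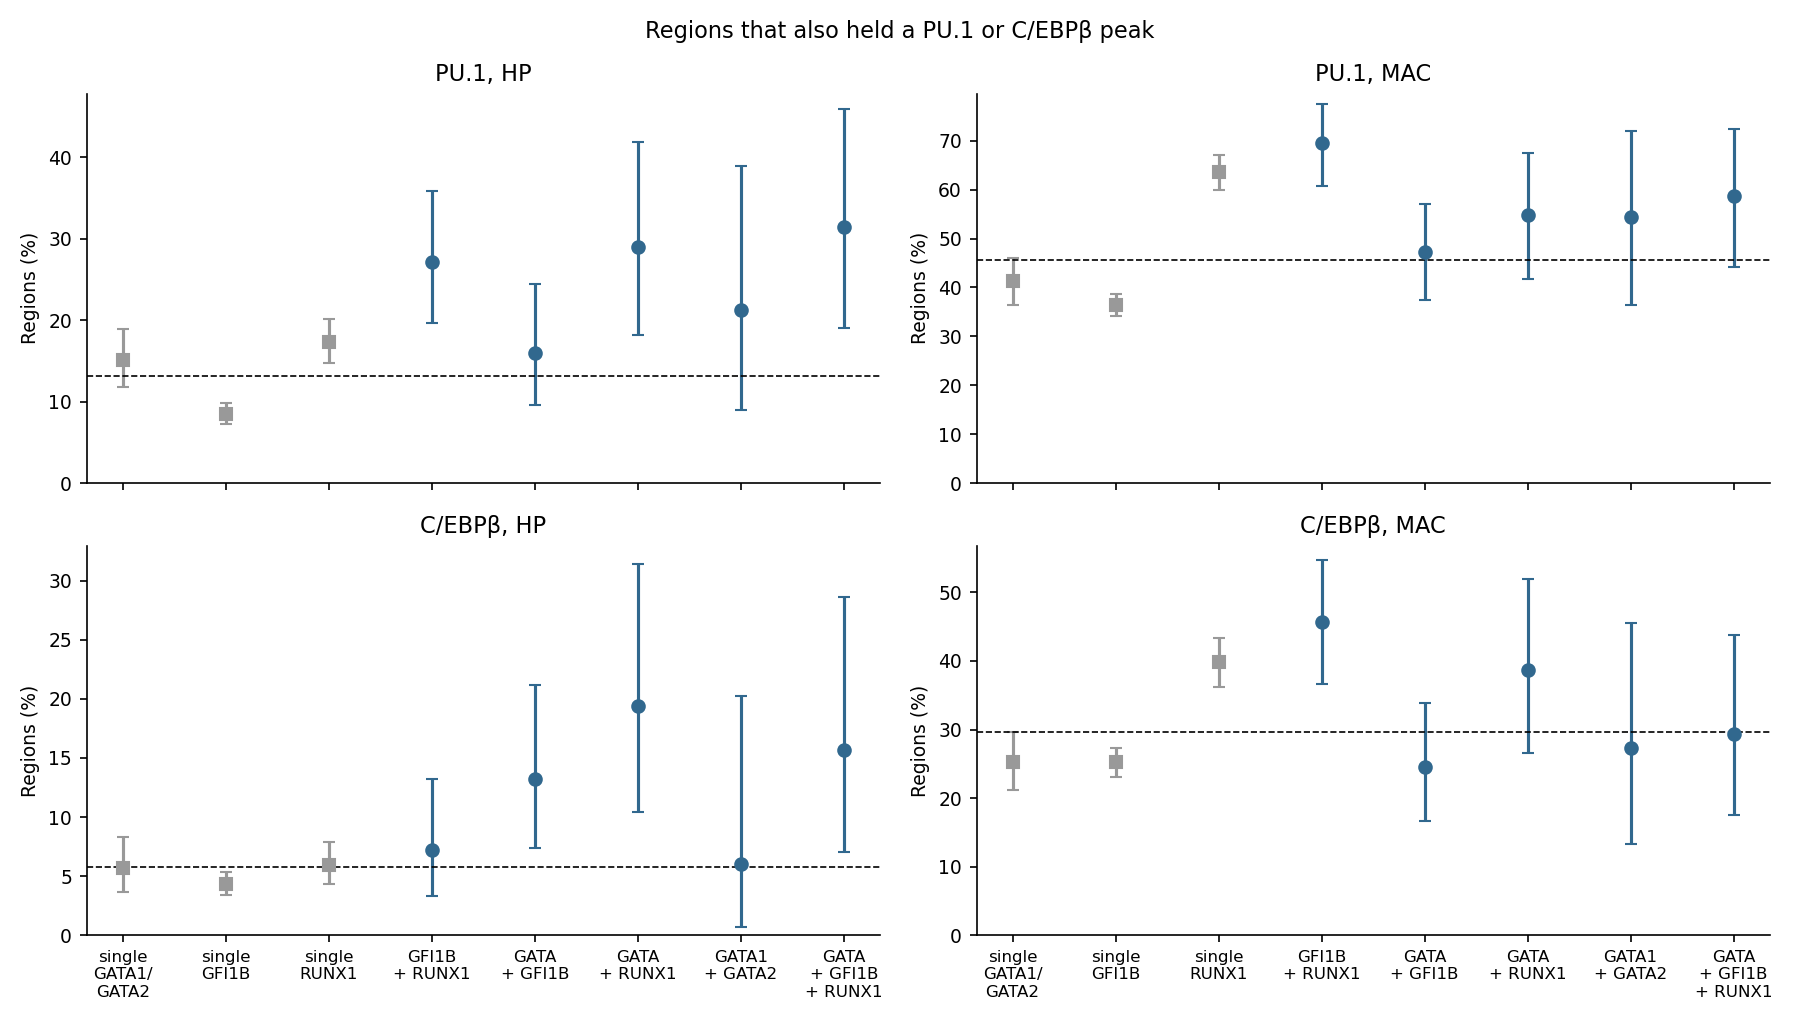
Share of regions (y axis, percent) that overlapped a PU.1 or C/EBPβ peak of HP or MAC, for 3 groups of single-factor regions (grey squares) and 5 classes of shared regions (blue circles) on the x axis. Bars are exact 95% intervals, the dashed line is the share over all merged regions, and the scales differ between panels. In the HP PU.1 panel the 3 classes with RUNX1 lie between 27.2% and 31.4%.

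Lists of the earlier stages and MAC RUNX1 touched few of the regions, 33 of 377 (8.75%, 6.10 to 12.1) against 4.14% of single-factor and 4.67% of all merged regions. MAC RUNX1 overlapped 18, HB C/EBPβ 9, HE C/EBPβ and MES C/EBPβ 7 each, and HB GATA2 and MES ELK4 6 each. A few regions were found in nearly every list. The region nearest to Rpp21 (chr17:36231209-36231622, 71.8% GC) was in all 14 lists, those nearest to Esp38 (chr17:39848389-39848863, in the noncoding gene AY036118, 71.2% GC) and to Gfi1 were in 11, and that nearest to Axin2 was in 10. The Rpp21, Esp38 and Axin2 regions held none of the GATA, RUNX and GFI1B words, and the Gfi1 region held 3 GATA cores and 1 RUNX consensus. Without these 4 regions there were 373 shared regions, of which 88 held PU.1 of HP (23.6%) and 41 held C/EBPβ of HP.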

How the data were processed

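Transcription factor binding was measured by ChIP-seq in sorted populations of 5 stages, with 1 list per factor and stage. In the methods of the study, the authors describe that they trimmed reads with CutAdapt, aligned them to mm10 with Bowtie, kept unique positions, removed duplicates with Picard, called peaks with MACS against the input of the same stage at a p-value threshold chosen by eye for each list, refined them with polyPeak and set them to 400 bp around the summit. HE cells were immunoprecipitated with carrier RNA and histone. Technical runs were merged for some lists. Tool versions are not given in the sources used here. The deposited lists give peak start and end positions without a score, and the aligned read totals that the study tabulates were not used here. The 4 HP lists held 250 to 2018 peaks.

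Peaks were merged at 1 bp overlap, annotated with RefSeq GRCm38 coding TSSs (25999 TSSs of 21000 genes, nearest to the region centre), and called promoter-proximal within 2 kb. All ends lay within the chromosomes. Python 3.11.15, SciPy 1.17.1, pysam 0.24.0, samtools 1.23.1 and Matplotlib 3.10.9 were used, and counting was tested on simulated regions. There were no replicates, so no test was run. The members, gene lists and comparisons were chosen with earlier results of these data known. Genes were named when nearest to a region of at least 3 factors, to at least 3 shared regions, or when on a gene list and nearest to a shared region. At most 30 were described in full, by number of factors, number of regions and position, so that most of the 83 genes nearest to a region of 3 or 4 factors are counted and not named. 1 of the regions with 4 factors is not reported here. The 150 kb limit for distances to listed genes that are not the nearest was chosen after seeing the values. Alternatives covered the overlap, the TSS distance, the number of factors, each list left out, the search window and the consensus letters.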

Additional observations from a re-analysis of the deposited data

How the results depend on the processing

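For 10 results, 72 alternative values were computed, of which 55 stayed within the 95% interval of the reported share or within 1.5 times the reported count. The 377 shared regions became 91 with at least 3 factors, 172 without the GFI1B list and 204 without the RUNX1 list. The promoter-proximal share of 31.0% became 38.7% within 5 kb or with TSSs of all annotated transcripts, and 19.8% with at least 3 factors. The MAC PU.1 share of 58.1% became 46.4% when an overlap of 200 bp was needed, 51.9% in distal regions, 52.9% without the GFI1B list and 52.0% without the RUNX1 list. The MAC C/EBPβ share of 34.7% became 27.9% with an overlap of 200 bp, 25.3% with at least 3 factors, 29.2% in distal regions and 26.5% without the RUNX1 list. The HP shares ranged from 21.6% to 26.7% for PU.1 and from 9.88% to 14.3% for C/EBPβ. The GATA consensus share became 41.9% in distal regions and 59.9% with the shorter core, and the GFI1B share became 21.5% of all shared regions with the looser word. Both of these words, the restriction of the GFI1B share to regions with a GFI1B peak (2.48%), and leaving out the 4 regions found in 10 or more lists were chosen after seeing the data. The cause of these changes was not tested. By construction, asking for more factors, or for a longer overlap with a PU.1 or C/EBPβ peak, can only lower a count. No paired analysis was possible because each group held 1 list. Without peak heights, a missing peak cannot be told apart from binding below the threshold.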
